A study of Mus musculus with 12 samples.

Results

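Agt and Ace encode the substrate and a central enzyme of the renin-angiotensin system, and they are described here across adipocytes and plated stromo-vascular cells of 2 mouse fat depots. The members were all probe sets whose only symbol in the platform annotation is Agt or Ace, which gave 2 of 8251 genes and 4 of the 12488 probe sets on the array: 1 for Agt and 3 for Ace. The pair was chosen by its group levels on these arrays, above all the opposite depot differences of Agt, so their levels and differences are given as a description, with no test. Of the 4 probe sets 2, that of Agt and the brightest of Ace, passed the filter on dim signals described under the processing.

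The mice were untreated males of the inbred strain C57BL/6, aged 42 to 49 days, with no altered allele or agent named for any group. Flank (subcutaneous) and epididymal (intraabdominal) fat of 10 mice was pooled by depot and digested with collagenase. Adipocytes were taken as the floating cells, whereas the stromo-vascular cells, a mixture that holds fat cell precursors, were freed of red cells and plated in medium with 10% fetal calf serum for 16 h before RNA was taken. Each of the 4 groups had 3 arrays. Whether the 3 arrays of a group came from separate pools is not stated, so errors and p-values cover only how far these arrays differ, which may be technical.

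Angiotensinogen, the product of Agt, is a secreted serpin-family protein made mainly by liver and also by fat cells. Renin cuts it to angiotensin I, and angiotensin-converting enzyme, a membrane-bound peptidase known from endothelium, removes a dipeptide from angiotensin I to give angiotensin II, which raises blood pressure through its receptors. Converting enzyme also breaks down bradykinin, and its gene has a second, internal promoter that is active in developing sperm.

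Agt lies on chromosome 8 (positions 124556587 to 124569706, minus strand) and Ace on chromosome 11 (105967948 to 105989964, plus strand) of the GRCm38.p6 assembly. The 250 bases before each start site in RefSeq are printed because the 2 Ace starts, 7241 bases apart, give transcripts that a probe set may or may not share, and because the Agt promoter belongs to the member with the larger difference between fractions. They cover chr8:124569707-124569956 (minus strand), chr11:105967698-105967947 and chr11:105974939-105975188 (plus strand), and capitals mark matches to the motifs named after them.
Agt: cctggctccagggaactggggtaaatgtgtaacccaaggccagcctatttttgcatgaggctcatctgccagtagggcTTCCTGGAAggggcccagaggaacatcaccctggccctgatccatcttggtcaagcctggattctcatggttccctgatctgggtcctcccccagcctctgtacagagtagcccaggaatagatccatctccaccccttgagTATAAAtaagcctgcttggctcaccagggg
Ace, first start: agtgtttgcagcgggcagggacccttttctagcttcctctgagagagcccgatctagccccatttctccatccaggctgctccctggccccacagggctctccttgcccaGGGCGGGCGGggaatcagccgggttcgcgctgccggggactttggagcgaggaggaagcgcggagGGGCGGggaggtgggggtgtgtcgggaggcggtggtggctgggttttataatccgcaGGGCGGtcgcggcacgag
Ace, second start: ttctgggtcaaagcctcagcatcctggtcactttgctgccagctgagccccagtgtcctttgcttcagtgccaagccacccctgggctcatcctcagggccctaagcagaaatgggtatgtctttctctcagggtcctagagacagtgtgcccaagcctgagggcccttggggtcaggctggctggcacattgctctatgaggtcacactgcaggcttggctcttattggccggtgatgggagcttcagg
The Agt window held a TATA box (TATAAA, searched on the gene strand), from base -30 to -25, which 7.59% of 32851 promoters of the same length hold. It also held TTCCTGGAA, a match to the STAT-type motif TTCCNGGAA (both strands), from base -172 to -164, and 0.913% of promoters hold such a match. Neither it nor the Ace windows held TGTTCT. The window of the first Ace start held 4 matches to the GC box GGGCGG (both strands; 2 of them overlap), found in 32.7% of promoters, and none to the others. The window of the second Ace start held no match to any of these motifs or to the glucocorticoid receptor motif TGTTCT (both strands; in 16.1% of promoters), and no match says only that these letters are not in this window.

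The 2% trimmed means of the arrays were nearly equal, and no 2 arrays were identical. Array medians differed more, at 476 to 558 in subcutaneous and 423 to 484 in intraabdominal adipocytes. In stromo-vascular cells the medians were 507 to 533 and 487 to 512. Within a group the arrays correlated at 0.928 to 0.976 (Pearson's r over probe sets). The fractions carried the markers of their labels: all 9 tested adipocyte markers were higher in adipocytes in each depot, with a summed signal of 561639.7 to 728631 against 18958 to 31767 in stromo-vascular cells. Of 10 preadipocyte and fibroblast markers 8 were lower in adipocytes than in stromo-vascular cells in subcutaneous and 9 in intraabdominal fat. In each depot 1 of the 10 was higher in adipocytes (calls at an adjusted p under 0.05, limma). Of all probe sets tested 23.5% were called higher and 29.4% lower in subcutaneous adipocytes, and 22.4% and 29.0% in intraabdominal ones. Endothelial markers were measured mainly in the adipocyte fraction, where 10 of 11 were higher than in stromo-vascular cells in each depot. The ratio of 3' to 5' signal of the actin transcript, a sign of RNA quality, was 2.35 to 3.10 in subcutaneous and 1.71 to 2.24 in intraabdominal adipocytes, and 1.11 to 1.24 in stromo-vascular cells, so it moved with fraction and with the depot of the adipocytes. Its part in the results was not tested beyond the covariate fits given below.

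Agt had its highest signal in intraabdominal adipocytes and its lowest in intraabdominal stromo-vascular cells. The signals, on the linear MAS5 scale, were 15473, 18882 and 14663 on the 3 arrays of intraabdominal adipocytes and 2245, 2360 and 1952 on those of subcutaneous adipocytes. In stromo-vascular cells they were 721, 817 and 724 in the subcutaneous and 85.2, 86.1 and 94.9 in the intraabdominal depot. The 4 groups did not overlap anywhere: intraabdominal adipocytes came first, then subcutaneous adipocytes, subcutaneous stromo-vascular cells and intraabdominal stromo-vascular cells, and the smallest step between neighbours was 2.39-fold from the lowest array of one to the highest of the next. The spread within a group was small beside these steps, with a coefficient of variation of 5.99% to 13.7% (n = 3 each). On its array the Agt probe set was brighter than 97.0% to 97.6% of probe sets in intraabdominal adipocytes, but brighter than only 21.1% to 21.4% in intraabdominal stromo-vascular cells, where it was dim and no detection call is at hand. In bulk samples fewer cells of a type and less RNA per cell cannot be told apart.

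**Figure D1:**
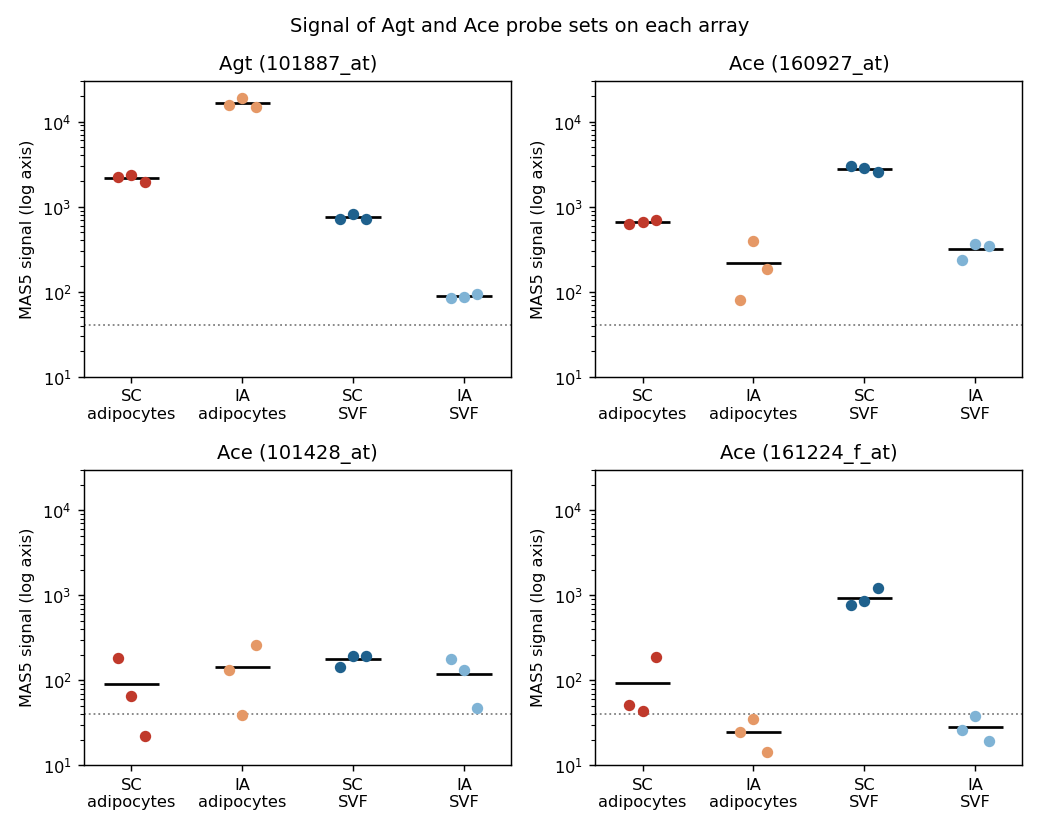
MAS5 signal (log axis) of the Agt probe set and the 3 Ace probe sets on each of the 12 arrays, by group (SC, subcutaneous; IA, intraabdominal; SVF, stromo-vascular cells); points are arrays, bars are group means of 3 arrays and the dotted line is the pseudocount of 40.1. Agt runs from 85.2 to 18882 with no overlap between groups, the brightest Ace probe set (upper right) and the second (lower right) are highest in subcutaneous stromo-vascular cells, and the third (lower left) overlaps in all groups.

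The depot difference of Agt had opposite directions in the 2 fractions. In adipocytes the subcutaneous depot read 2185 ± 210 (SD, n = 3) against 16339 ± 2239 in the intraabdominal depot, a log2 difference of -2.88 ± 0.16 (SE) on the scale of signal plus pseudocount. In stromo-vascular cells it read 754 ± 54.8 against 88.7 ± 5.32, a log2 difference of 2.62 ± 0.16. All 3 intraabdominal adipocyte arrays lay above all 3 subcutaneous ones, and all 3 subcutaneous stromo-vascular arrays lay above all 3 intraabdominal ones. Of all probe sets tested 10.7% had subcutaneous adipocyte arrays all below and 13.6% all above the intraabdominal ones, and in stromo-vascular cells 20.5% had them all above and 16.8% all below. The first difference minus the second was -5.50 ± 0.22 on the log2 scale, the fifth in size among 8695 probe sets. Agt was the only 1 of these probe sets whose log2 difference was below -2 in adipocytes and above 2 in stromo-vascular cells, a pattern for which it was chosen.

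The same levels gave very unequal steps between fractions. In subcutaneous fat Agt was 2.80-fold higher in adipocytes than in stromo-vascular cells (log2 difference 1.48 ± 0.16), and with the actin ratio in the fit the difference was 0.91 ± 0.51. In intraabdominal fat it was 126-fold higher (6.98 ± 0.16), and the ratio of the mean signals, without the pseudocount, was 184. In both depots the adipocyte arrays lay above every stromo-vascular array. Such a separation with adipocytes higher was found for 27.6% of probe sets tested in subcutaneous and 26.2% in intraabdominal fat, and with adipocytes lower for 32.3% and 33.8%.

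Ace had its highest signal in subcutaneous stromo-vascular cells. The brightest Ace probe set read 3028, 2842 and 2524 there and 234, 364 and 345 in intraabdominal stromo-vascular cells. In adipocytes it read 628, 664 and 695 in the subcutaneous and 80.1, 395 and 182 in the intraabdominal depot. Subcutaneous stromo-vascular cells thus came first and subcutaneous adipocytes second, each clear of the rest, while the 2 intraabdominal groups overlapped and were not separated beyond their spread. The 3 intraabdominal adipocyte arrays were the most scattered, with a coefficient of variation of 73.3% against 5.05% in subcutaneous adipocytes.

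Unlike that of Agt, the depot difference of Ace had the same direction in both fractions. In stromo-vascular cells the brightest probe set read 2798 ± 255 in the subcutaneous against 314 ± 70.6 in the intraabdominal depot (log2 difference 3.02 ± 0.36, 8.10-fold). In adipocytes it read 662 ± 33.4 against 219 ± 161 (1.63 ± 0.36, 3.10-fold). Between fractions it was lower in subcutaneous adipocytes than in stromo-vascular cells of that depot (-2.01 ± 0.36), and the intraabdominal fractions overlapped (-0.63 ± 0.36). With the actin ratio in the fit the adipocyte depot difference was 0.91 ± 0.55, and the fraction differences were -3.83 ± 1.14 (subcutaneous) and -1.81 ± 0.78 (intraabdominal). Each kept its sign and moved more than 1.5-fold, the depot difference to a smaller size and the fraction differences to a larger one. With the mean of the 3 probe sets the adipocyte depot difference was 0.68.

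The second Ace probe set, whose identifier suffix marks probes that may match related sequences, gave the same order in stromo-vascular cells. It read 760, 855 and 1205 in the subcutaneous and 26.1, 38.3 and 19.3 in the intraabdominal depot, a log2 difference of 3.83 ± 0.40 from the fit without a filter. In adipocytes it was dim, at 51.8, 43.8 and 187 in the subcutaneous and 24.5, 34.8 and 14.6 in the intraabdominal depot, and all 6 intraabdominal arrays lay below the pseudocount. Across the 12 arrays it correlated with the brightest at Pearson's r of 0.918 on the log2 scale, over libraries that share their groups. The third probe set read between 22.0 and 264 over all arrays, and each pair of groups overlapped. Its correlation with the brightest was 0.11, and its depot differences were -0.50 ± 0.55 in adipocytes and 0.54 ± 0.55 in stromo-vascular cells. The annotation pairs it with another sequence record than the brightest, and which Ace transcripts each probe set reads was not tested.

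**Figure D2:**
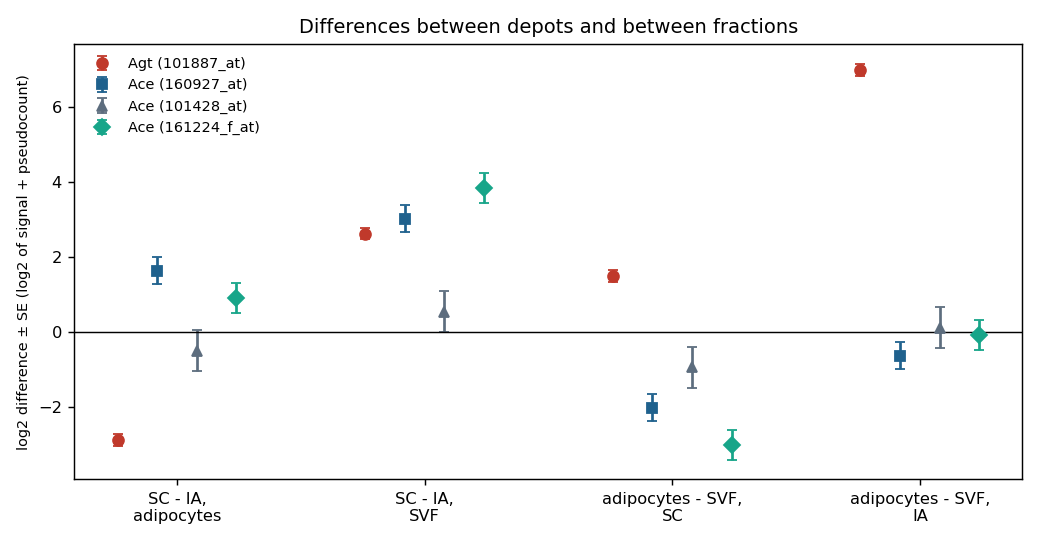
Log2 difference (± SE of the limma fit, 3 arrays a group) of the Agt probe set and the 3 Ace probe sets between depots in each fraction and between fractions in each depot; the horizontal line is 0. Agt is at -2.88 in adipocytes and 2.62 in stromo-vascular cells, whereas the brightest Ace probe set (squares) is above 0 in both depot differences.

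Over all 8695 probe sets, 228 were called in both depot comparisons (limma, adjusted p under 0.05). Of these 45 (0.518% of those tested) had the signs of Agt, lower in subcutaneous adipocytes and higher in subcutaneous stromo-vascular cells, and 21 (0.242%) the reverse. The same sign in both was found for 66 (0.759%) higher and 96 (1.10%) lower in subcutaneous fat. Agt and Ace had different profiles, with a Pearson's r of -0.27 over the 12 arrays.

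Markers of other cells were measured beside these differences, and their part in them was not tested. Of all probe sets 3.97% were called higher and 4.16% lower in subcutaneous adipocytes, and 6.49% and 6.45% in the stromo-vascular comparison, against which the counts that follow can be read. Of 9 liver markers the summed signal was 2800.3 to 3250.3 in subcutaneous and 1341 to 1729 in intraabdominal adipocytes, and thus lower where Agt was higher. Only 4 of the 9 passed the filter, and their median log2 difference there was 0.03 against 0.07 over all probe sets. Albumin (Alb) was the 1 of 4 tested that was called in adipocytes, higher in the subcutaneous depot. In stromo-vascular cells the liver markers moved with Agt, with sums of 2043 to 2223 in the subcutaneous and 1002 to 1455 in the intraabdominal depot, and Hpx, hemopexin, was the 1 of 4 called (log2 difference 1.48, adjusted p = 0.0218). The median of the 4 was 0.62 against 0.06 over all probe sets. Of 9 adipocyte markers Adipoq and Lpl (2) were called in stromo-vascular cells, both on the subcutaneous side, with sums of 26069 to 31767 against 18958 to 21692, which did not overlap. The median log2 difference of the 9 in these cells was 0.05 against 0.06 over all probe sets. In adipocytes 1 of the 9 was called, lower in the subcutaneous depot, and 5 had an unadjusted p under 0.05 (limma). The median log2 difference there was -0.36 against 0.07 over all probe sets. The sums overlapped, at 561639.7 to 635894 in the subcutaneous and 609392 to 728631 in the intraabdominal depot. Smooth muscle and mesothelial markers were higher in intraabdominal stromo-vascular cells, in 8 of 9 and 5 of 5 tested cases, where Agt and Ace were both low. In adipocytes the summed smooth muscle signal was 11915 to 14288 in the subcutaneous and 19238 to 21464 in the intraabdominal depot, higher where Agt was higher, and 1 of 9, Mylk, was called. The median log2 difference of these 9 was -0.0016 against 0.07 over all probe sets, so the sum did not stand for the list as a whole. The preadipocyte and fibroblast sum ran with Agt and Ace in stromo-vascular cells, at 426117 to 464509 in the subcutaneous and 312386 to 361095 in the intraabdominal depot, with 3 of 10 called higher (Col3a1, Dcn and Thy1) and 1 lower (Lum). The median log2 difference of the 10 was only 0.10 against 0.06 over all probe sets. In adipocytes the sum ran with Ace, at 67225 to 96246 against 51248 to 58415, with 3 of 10 called higher (Col1a1, Col1a2 and Col3a1) and a median of 0.60 against 0.07. For Ace, an endothelial enzyme, 5 of 11 endothelial markers were called in stromo-vascular cells, all on the subcutaneous side, but their summed signal overlapped (10786 to 12765 against 10692 to 18159), with Tie1 under the pseudocount on every intraabdominal array. In adipocytes 1 of 11, Ramp2, was called, lower in the subcutaneous depot, and the sums were 20926 to 37717 against 24475 to 27265. Among 11 macrophage markers 1 was on the subcutaneous side and 6 on the intraabdominal side in stromo-vascular cells, with sums of 21601 to 22244 against 29993 to 34425 and C1qb under the pseudocount on every subcutaneous array. In adipocytes 2 of these 11 were called, both on the subcutaneous side, and the sums overlapped (23135 to 32686 against 17261 to 27182). Of 9 epididymal and testicular markers 3 passed the filter and 0 were called in either depot comparison (limma; 0 also at an unadjusted p under 0.05).

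The remainder of the renin-angiotensin system was described from 8 lists of 96 genes, of which 68 were on the array under a symbol of their own and 56 passed the filter. In adipocytes 3 of the 56 were higher and 3 lower in the subcutaneous depot, 10.7% against 8.13% of all probe sets tested, of which 3.97% were higher and 4.16% lower (median log2 difference 0.16 against 0.07). In stromo-vascular cells 9 were higher and 2 lower, 19.6% against 12.9%, of which 6.49% were higher and 6.45% lower (median 0.19 against 0.06). For the interaction, the adipocyte log2 difference less the stromo-vascular one, 3 were above and 7 below 0, 17.9% against 8.43%, made of 3.90% above and 4.53% below (median -0.02 against 0.03). Between fractions 14 were higher and 22 lower in adipocytes in subcutaneous fat (64.3% against 52.8%, made of 23.5% higher and 29.4% lower; median -0.00 against -0.04) and 18 higher and 21 lower in intraabdominal fat (69.6% against 51.3%, made of 22.4% higher and 29.0% lower; median 0.10 against -0.11). These counts moved with single arrays. Without intraabdominal adipocyte array 3 the adipocyte count was 11, and it was 4 without subcutaneous adipocyte array 1, subcutaneous stromo-vascular array 2 or any 1 intraabdominal stromo-vascular array. The stromo-vascular count was 6 without subcutaneous array 2 and 7 without intraabdominal array 3. The interaction count was 6 without intraabdominal adipocyte array 1, subcutaneous stromo-vascular array 2 or intraabdominal stromo-vascular array 2 or 3. With the actin ratio in the fit the calls came to 1 in adipocytes (Rcan1), 5 for the interaction, 11 between subcutaneous and 20 between intraabdominal fractions, and 12 in stromo-vascular cells. Of the calls between fractions given below (Atp6ap2, Igf2r, Ctsd, Mme, Agtrap, Kng1 and Cebpa), those of Ctsd in both depots and of Atp6ap2 and Mme in subcutaneous fat were then lost. Calls between fractions of other genes named below, such as Anpep and Fos in both depots, were lost as well.

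**Figure D3:**
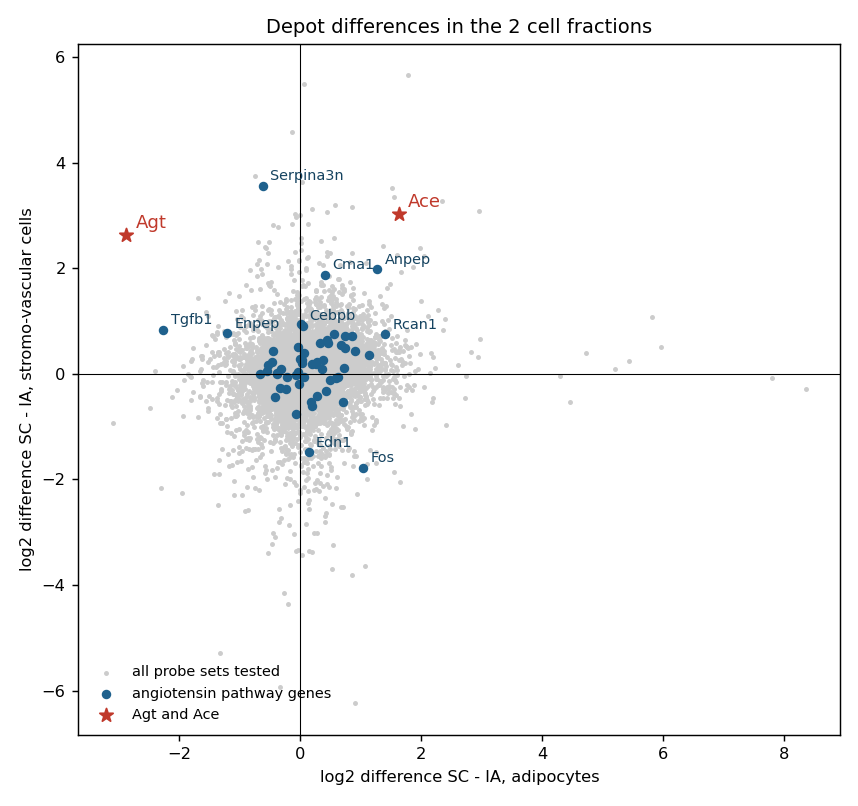
Log2 difference between subcutaneous (SC) and intraabdominal (IA) fat in adipocytes (horizontal axis) and in stromo-vascular cells (vertical axis) for 8695 probe sets (grey), 56 genes of the angiotensin pathway lists (blue) and the main Agt and Ace probe sets (red stars). Agt lies in the upper left at -2.88 and 2.62 and Ace in the upper right at 1.63 and 3.02; Tgfb1 and Enpep lie on the side of Agt.

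On the renin side no depot call was made. Renin itself and the type 1 angiotensin receptors Agtr1a and Agtr1b were not analysed here. Of 3 genes measured, Atp6ap2, the prorenin receptor, and Igf2r, which binds prorenin, were lower in adipocytes than in stromo-vascular cells in both depots (4.75-fold and 4.24-fold for Atp6ap2, adjusted p = 1.89e-07 and 4.09e-07). Ctsd, a lysosomal protease able to cut angiotensinogen, was higher in adipocytes (2.01-fold and 1.86-fold, adjusted p = 8.82e-06 and 2.74e-05). None of the 3 was called between depots in limma, where 1 had an unadjusted p under 0.05 in each fraction. Ctsd read 53759 ± 3514 in subcutaneous and 41362 ± 4052 in intraabdominal adipocytes (adjusted p = 0.0784).

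Among the peptidases that process angiotensins, Enpep had the depot pattern of Agt. Enpep encodes aminopeptidase A, which turns angiotensin II into angiotensin III. It read 6890.4, 6879 and 6519.9 in intraabdominal and 2485, 2990.1 and 3273 in subcutaneous adipocytes, and 1053, 1242 and 1147 in subcutaneous against 799.6, 745 and 466 in intraabdominal stromo-vascular cells. In both fractions the depots did not overlap. Enpep was 2.32-fold lower in subcutaneous adipocytes (adjusted p = 0.00122) and 1.71-fold higher in subcutaneous stromo-vascular cells (adjusted p = 0.0119), and the interaction was -1.98 ± 0.26 (log2 ± SE, adjusted p = 0.000229). The call in stromo-vascular cells did not hold once array 2 of the subcutaneous cells was left out (adjusted p = 0.0558) and the call in adipocytes with the actin ratio in the fit (adjusted p = 0.154). A second Enpep probe set went the other way in adipocytes (log2 difference 0.69, adjusted p = 0.0374) and was not called in stromo-vascular cells or for the interaction (adjusted p = 0.361 and 0.450). With the mean of both probe sets the adipocyte difference was -0.26 (adjusted p = 0.323) and the interaction -0.80 (adjusted p = 0.0388).

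Of the 10 peptidases tested, 1 fell in the subcutaneous depot among adipocytes (4.16% of all probe sets) and 3 rose among stromo-vascular cells (6.49% of all). With 10 genes, 1 call is near the share over all probe sets. Anpep, aminopeptidase N, which shortens angiotensin III, read 4499.8, 4478 and 4465 in subcutaneous and 1034, 1198 and 1102 in intraabdominal stromo-vascular cells (3.93-fold, adjusted p = 0.00433). In adipocytes it read 928 ± 216 against 435 ± 282 (adjusted p = 0.0700), and the interaction was not called (adjusted p = 0.542). Cma1, a mast cell protease of the chymase family, read 1223, 1852 and 1349 in subcutaneous against 325, 383 and 394 in intraabdominal stromo-vascular cells (3.67-fold, adjusted p = 7.38e-05), with an interaction of -1.47 ± 0.33 (adjusted p = 0.0125, and 0.0851 with the actin ratio). Its other 2 probe sets were too dim to be tested. Mast cell proteases Cpa3, Mcpt4 and Ctsg were also under the filter. Mme, neprilysin, which degrades angiotensin and other peptides, was 8.18-fold and 8.07-fold higher in adipocytes than in stromo-vascular cells (adjusted p = 0.000140 and 0.000148) and was not called between depots (adjusted p = 0.390 and 0.429).

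The receptors and their partners gave no depot call among 6 tested in limma, where 2 in adipocytes and 0 in stromo-vascular cells had an unadjusted p under 0.05. Mas1, a receptor for a shortened angiotensin, read 1036 ± 237 and 894 ± 362 in subcutaneous and intraabdominal adipocytes and 852 ± 34.4 and 752 ± 146 in the stromo-vascular cells, and was called in no comparison. Agtr2, the type 2 angiotensin receptor, was under the filter, with 64.5 to 171 in subcutaneous and 44.4 to 101 in intraabdominal adipocytes and 3.07 to 19.1 in stromo-vascular cells. Agtrap, which binds the type 1 receptor, was 2.12-fold and 2.20-fold lower in adipocytes than in stromo-vascular cells (adjusted p = 0.00137 and 0.000940). On the kinin side Kng1, the precursor of bradykinin, was 3.43-fold and 5.90-fold lower in adipocytes (adjusted p = 0.000588 and 2.09e-05), and neither it nor the receptor Bdkrb1 was called between depots (limma; 1 of the 2 had an unadjusted p under 0.05 in each fraction).

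Of 4 tested genes of the corticosteroid side 1 was called between depots, in stromo-vascular cells. That is 25% against 12.9% of all probe sets, and 0 against 8.13% in adipocytes. With 4 genes, 1 call says little about the list. Hsd11b1, which regenerates active glucocorticoid inside cells, was 1.55-fold higher in subcutaneous stromo-vascular cells (8873 ± 410.5 against 5775 ± 1089.8, adjusted p = 0.0428). The call was lost without intraabdominal adipocyte array 2, without any 1 of the 3 subcutaneous stromo-vascular arrays or without intraabdominal stromo-vascular array 1 or 3 (adjusted p = 0.0541 to 0.151). Nr3c1, the glucocorticoid receptor, was called in no comparison.

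Among 10 tested transcription factors known to act on Agt, 2 rose and 1 fell in subcutaneous against intraabdominal adipocytes (3.97% and 4.16% of all probe sets), while 3 rose in stromo-vascular cells of that depot (6.49% of all). Cebpb, a factor of the acute-phase response and of early fat cell differentiation, read 23340.5, 20477 and 20214 in subcutaneous against 12226, 9413 and 12592 in intraabdominal stromo-vascular cells (1.88-fold, adjusted p = 0.000165). In adipocytes it read 9093 ± 735 against 8852 ± 157 (adjusted p = 0.884), and the interaction was -0.87 ± 0.18 (adjusted p = 0.00601). Pparg, the main regulator of fat cell formation, was 1.93-fold higher in subcutaneous stromo-vascular cells (530.5 ± 112 against 263 ± 105, adjusted p = 0.0188), a call lost without subcutaneous array 2 or intraabdominal array 2 or 3 of that fraction (adjusted p = 0.0754 to 0.0926). Cebpa, which maintains the mature fat cell, was 13.5-fold and 15.9-fold higher in adipocytes than in stromo-vascular cells (adjusted p = 7.59e-13 and 3.66e-13), and was not called between depots (adjusted p = 0.861 and 0.120). Bhlhe40, a clock-linked repressor, was 1.68-fold higher in subcutaneous adipocytes (adjusted p = 0.00549). This call was lost with the actin ratio (adjusted p = 0.0974) and with arrays centred on their median (adjusted p = 0.0603). Its 1.40-fold call in stromo-vascular cells (adjusted p = 0.0394) was lost without intraabdominal adipocyte array 2, subcutaneous stromo-vascular array 1 or 2 or any 1 intraabdominal stromo-vascular array (adjusted p = 0.0520 to 0.187). The adipocyte calls of Rela (log2 -0.47, adjusted p = 0.0462) and Usf2 (0.72, adjusted p = 0.0407) were lost without most single arrays: 11 of 12 for Rela, the exception being intraabdominal adipocyte array 3, and 8 of 12 for Usf2, the exceptions being array 3 of either adipocyte group and subcutaneous stromo-vascular arrays 1 and 3 (adjusted p = 0.0523 to 0.197 and 0.0502 to 0.163). With the mean over its probe sets Rela was at 0.17.

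**Figure D4:**
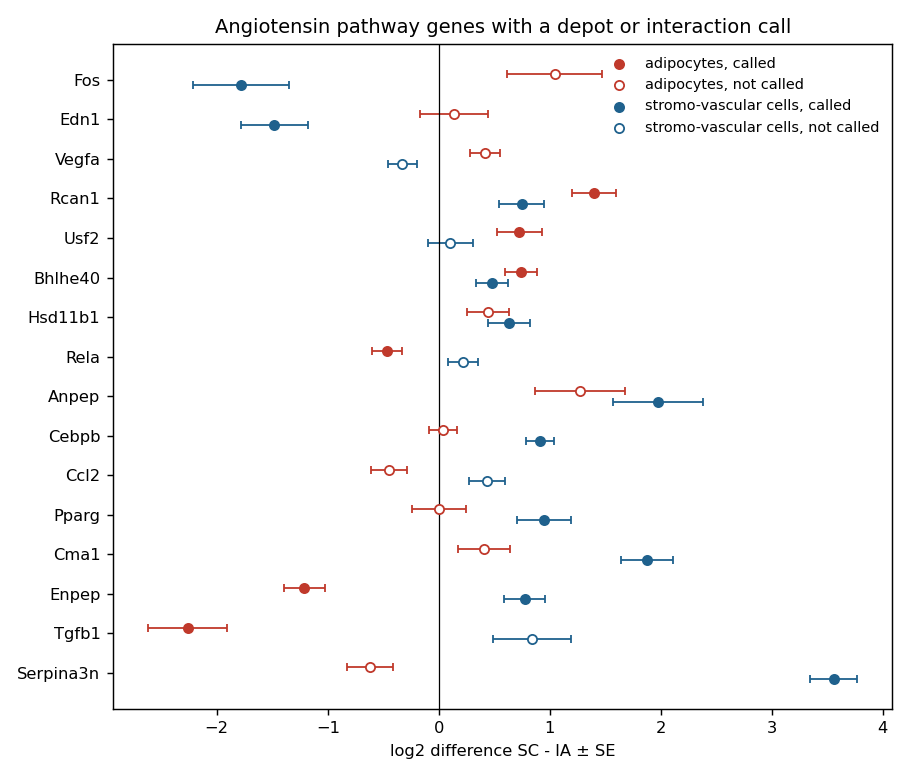
Log2 difference (± SE of the limma fit) between subcutaneous (SC) and intraabdominal (IA) fat in adipocytes (red) and stromo-vascular cells (blue) for the 16 angiotensin pathway genes called in a depot comparison or in the interaction; filled points passed an adjusted p of 0.05. Serpina3n, Tgfb1 and Enpep, at the bottom, have the most negative interaction, and Fos, at the top, the most positive.

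Of the genes known to respond to angiotensin II 15 were tested. In subcutaneous against intraabdominal adipocytes 1 rose and 1 fell, 13.3% against 8.13% of all probe sets (3.97% higher and 4.16% lower). The median was 0.28 against 0.07. Among stromo-vascular cells 1 rose and 2 fell, 20% against 12.9% (6.49% higher and 6.45% lower), with a median of -0.12 against 0.06. For the interaction 3 were above and 2 below 0, 33.3% against 8.43%. At an unadjusted p under 0.05 (limma) 7 passed in adipocytes and 8 in stromo-vascular cells. Rcan1, an inhibitor of calcineurin, read 4437, 6797 and 7779 in subcutaneous against 2323, 2544 and 2097 in intraabdominal adipocytes (2.64-fold, adjusted p = 0.000755). The growth factor Tgfb1 read 137, 177 and 135 in subcutaneous against 1272, 1205 and 415 in intraabdominal adipocytes, and 1492 ± 67.1 against 845 ± 264 in stromo-vascular cells, with an interaction of -3.10 ± 0.50 (adjusted p = 0.00115). The adipocyte difference (log2 -2.26, adjusted p = 0.00138) was not called with the actin ratio in the fit (adjusted p = 0.137). Tgfb1 is placed beside Agt in the upper left of the depot plot, though its stromo-vascular difference was not called (adjusted p = 0.152). Edn1, the vasoconstrictor endothelin, was 2.79-fold lower in subcutaneous stromo-vascular cells (1207 ± 159 against 3452 ± 550, adjusted p = 0.00438), and its second probe set was also called there. Fos, an immediate early factor, was 3.43-fold lower there (adjusted p = 0.0126), and was not called with the mean of its 2 probe sets (adjusted p = 0.107).

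Of the other clade A serpins, the family of angiotensinogen, 6 were tested and 1 was called between depots, in stromo-vascular cells. That is 16.7% against 12.9% of all probe sets, and 0 against 8.13% in adipocytes. With 6 genes, 1 call is near the share over all probe sets. Serpina3n, an acute-phase protease inhibitor, read 31093, 32264 and 39939 in subcutaneous and 2506, 3761 and 2507 in intraabdominal stromo-vascular cells. Its adipocyte signals overlapped between depots, at 34548, 25320.2 and 27238 in subcutaneous and 45205, 58774 and 32602 in intraabdominal fat. The interaction was -4.18 ± 0.30 (adjusted p = 1.02e-06). Intraabdominal stromo-vascular cells were its single low group, unlike the graded levels of Agt. The remaining 5, Serpina1b, Serpina1c, Serpina1e, Serpina6 and Serpina10, were not called between depots (limma; 0 of the 6 in adipocytes, 1 at an unadjusted p under 0.05), and Serpina1 copies are so alike that probe sets may not separate them.

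The genes whose log2 signal followed Agt most closely over the 12 arrays, among 6435 genes, were Col6a2 (Pearson's r 0.984), Lpgat1 (0.979), Apcdd1 (0.978), Idh1 (0.971), Fzd4 (0.971), Enpep (0.971), Noct (0.970) and Ramp2 (0.966). These are descriptions over arrays that share 4 groups. All 8 had their highest mean in intraabdominal adipocytes and their lowest in intraabdominal stromo-vascular cells, though with smaller steps than Agt. Being picked by this correlation makes such a shared order likely from the outset. Col6a2, a chain of collagen VI, read 15077 ± 1577 and 3323 ± 519 in those groups, and Apcdd1, a Wnt inhibitor, 11976 ± 269 and 1071 ± 125. Ramp2, which forms the adrenomedullin receptor with a partner, read 5951 ± 295 and 534 ± 128. Ace was followed most closely by Lgals3bp (0.954), Mapk8ip3 (0.938), Ntn1 (0.922), Sfrp2 (0.921), Mfap2 (0.918), Gja1 (0.913), Efs (0.909) and Ccl8 (0.907). All 8, likewise picked by their correlation, had their highest mean in subcutaneous stromo-vascular cells. Sfrp2, a secreted Wnt modulator, read 6318 ± 212 there, 1511 ± 501 in subcutaneous adipocytes, 621 ± 105 in intraabdominal stromo-vascular cells and 281 ± 162 in intraabdominal adipocytes, the order of the Ace means.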

How the data were processed

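Messenger RNA was measured on 12 one-colour Affymetrix arrays, 3 per group. The authors deposited an intensity per probe set and array on a linear scale, computed with MAS5 per the submitters' processing notes, with no version or detection call at hand. The 2% trimmed means of the arrays were nearly equal (ratio of highest to lowest 1.00017), so values were taken as deposited. Equal trimmed means do not make the arrays alike in other respects, and their medians differed. The 66 control probe sets were left out of 12488.

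Analysis used log2(signal + 40.1), the pseudocount being the 10th percentile of the table, and folds of dim genes are understated on it. The 30% of probe sets with the lowest mean log2 signal were not tested, leaving 8695. One limma 3.58.1 model (lmFit, eBayes with trend; R 4.3.3) held the 4 groups, with 8 residual degrees of freedom. Adjusted p-values are limma's after Benjamini-Hochberg adjustment over 8695 probe sets, and those under 0.05 were called. The script was tested on simulated data. A gene stood by its brightest probe set. Named were Agt and Ace, called pathway genes, the main receptors, and the 8 genes most like each member. Members and lists were chosen with earlier results of these data known. Symbols came from the platform annotation, and promoters and loci from RefSeq on GRCm38.p6, where both genes matched. The number of arrays limits the precision.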

Additional observations from a re-analysis of the deposited data

Results flagged for a closer look

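Agt was singled out because its depot difference ran in opposite directions on every array of the 2 fractions, at -2.88 in adipocytes and 2.62 in stromo-vascular cells (log2), a difference of -5.498 that was not tested because the gene was chosen for it. For 10 pathway genes the adipocyte depot difference less the stromo-vascular one passed the limma interaction test. It was below 0 for Serpina3n (-4.177, adjusted p = 1.02e-06), Tgfb1 (-3.1, adjusted p = 0.00115), Enpep (-1.984, adjusted p = 0.000229), Cma1 (-1.471, adjusted p = 0.0125), Ccl2 (-0.8832, adjusted p = 0.0289), Cebpb (-0.8742, adjusted p = 0.00601) and Rela (-0.686, adjusted p = 0.0381). It was above 0 for Fos (2.822, adjusted p = 0.00896), Edn1 (1.619, adjusted p = 0.0320) and Vegfa (0.7445, adjusted p = 0.0238). Without single arrays the calls of Ccl2 (8 of 12 arrays, adjusted p = 0.0553 to 0.0789), Rela (9, 0.0588 to 0.101), Edn1 (7, 0.0534 to 0.0844) and Vegfa (4, 0.0513 to 0.0803) were lost. Over all alternatives the adjusted p reached 0.368, 0.886, 0.197 and 0.120 for these 4 genes, and 0.139 for Fos and 0.0851 for Cma1.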

How the results depend on the processing

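Agt kept the direction of every difference under every alternative run, and so did the brightest probe set of Ace. For Agt the log2 difference between depots in adipocytes was -3.09 with arrays centred on their median and -3.10 with the actin ratio as a covariate, and in stromo-vascular cells it was 3.07 with a pseudocount of 1, 2.30 with it doubled and 2.46 after quantile normalization. Between subcutaneous fractions it was 1.62 after quantile normalization and 0.91 with the actin ratio. Between intraabdominal fractions it was 7.50, 6.59, 7.14, 6.80 and 6.61, and the interaction -5.97, -5.16, -5.66, -5.18 and -5.70, with a pseudocount of 1, a doubled one, median centring, quantile normalization and the actin ratio. For Ace the actin ratio gave 0.91 in adipocytes, -3.83 and -1.81 between fractions and -2.02 for the interaction, and the mean over probe sets gave 0.68 in adipocytes and 2.46 in stromo-vascular cells. Without single arrays Agt ranged from -2.95 to -2.77, 2.57 to 2.66, 1.43 to 1.56, 6.87 to 7.06 and -5.57 to -5.39 (depots in adipocytes and in stromo-vascular cells, subcutaneous and intraabdominal fractions, interaction), and Ace from 1.17 to 2.10, 2.84 to 3.12, -2.08 to -1.95, -1.10 to -0.17 and -1.84 to -0.92.

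The pathway counts of 6, 11, 36, 39 and 10, in that order, ranged from 4 to 11, 6 to 13, 32 to 37, 32 to 39 and 6 to 11 without single arrays. The actin ratio gave 1, 11, 20 and 5 for all but the stromo-vascular depots, where array weights gave 19 and a fit of only those groups 17. Over 102 called gene results, 2163 of 2418 alternative values kept their call, 248 missed the threshold (54 of them with the actin ratio) and 7 changed sign. These were, with the actin ratio, Prep between intraabdominal fractions (0.43) and Grk5 (0.16), Gnaq (-0.37), Sgk1 (0.13) and Usf2 (-0.42) between subcutaneous fractions, and with the mean over probe sets Rela in adipocytes (0.17) and its interaction (0.14). The cause was not tested. Median centring moved the median of all probe sets between depots in adipocytes from 0.07 to -0.15, and the calls higher in subcutaneous fat from 345 of 707 to 172 of 958.

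No pairing of the arrays by replicate number was seen: 18 same-number pairs correlated at -0.086 to 0.110, and 3 of 12 arrays correlated best with their own number. A small effect of a shared pool could escape this check. With the replicate block the counts were 4, 11, 36, 37 and 8, the member differences were the same (Agt -2.88 and 2.62), and 7 calls were lost, including Hsd11b1 in stromo-vascular cells (adjusted p = 0.0561). Signals near the pseudocount, as of Agt in intraabdominal stromo-vascular cells, bound the precision of their folds.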
